A study of Enchytraeus albidus with 15 samples.

Results

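On the array used for the white potworm Enchytraeus albidus, 171 of the 1035 non-control probes have a name made of the word Contig and a number, and these contig probes are described here. They were chosen by name alone, so no measured value decided which probes belong. The numbers run from 1 to 177 with 6 of them unused, and every contig was printed as 14 spots on each array. A contig is a sequence joined from overlapping shorter reads, but the files do not explain the prefix, and they pair no contig with a gene name, a description or a sequence. The transcripts are therefore called by their contig numbers, with no function given to any of them.

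Adult worms with a clitellum, the glandular band of a sexually mature worm, spent 2 days in vessels of 25 g of moist OECD soil, a standard artificial test soil, with 10 worms in each, at 20 °C under a cycle of 16 h light and 8 h dark. Control vessels held clean soil, and the others held soil with silver nitrate (AgNO3) or with silver nanoparticles (Ag-NPs), each at 100 or at 200 mg/kg. Each of these 5 groups had 3 biological replicates, the worms of a vessel were extracted together as whole bodies, and each replicate was hybridised as Cy3-labelled cRNA, made from 0.5 µg of RNA, to 1 of 15 one-colour Agilent arrays. The comparisons ask how transcript levels responded to each form and concentration of silver, and whether the forms differed.

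White potworms are small oligochaetes that live in the upper soil, feed on decaying matter and take up metals through the skin and the gut. Silver nitrate dissolves and releases silver ions, which bind thiol groups of proteins, whereas silver nanoparticles are metallic grains that release ions more slowly and can also be taken up as particles. In extracts of whole worms, fewer cells of a type and less RNA per cell cannot be told apart.

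A level is the log2 of the processed signal averaged over the spots of a probe, minus the array's 75th percentile of that signal, so a level of 0 lies at that percentile. The 75th percentile, called brightness here, ranged from 16.9 to 54.3 signal units over the arrays. It also ranged widely within groups, for example from 18.7 to 45.3 in clean soil and from 19.7 to 54.3 with AgNO3 at 100 mg/kg. The arrays lay on 3 slides, of which slides 1 and 2 were scanned on one day and slide 3 on another, and all 3 arrays of Ag-NPs at 100 mg/kg lay on slide 3. AgNO3 at 100 mg/kg was the only group with no array on slide 3. Spots of a contig differed little within an array, with a median SD of 0.10 to 0.16 over the contigs above background on that array. Replicates differed more, with a median SD of 0.57 over the tested contigs and 0.55 over the other tested probes.

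A contig was taken as measured on an array, that is well above background there, if the scanner software marked at least 0.5 of its usable spots so. By this count 49 contigs (28.7%) were measured on all 15 arrays, 48 (28.1%) on none, and 74 on some. Among the 864 other probes 20.6% were measured on all arrays and 35.9% on none.

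The 49 contigs measured on all arrays were Contig5, Contig7, Contig9, Contig10, Contig12, Contig18, Contig20, Contig24, Contig29, Contig33, Contig34, Contig38, Contig46, Contig54, Contig56, Contig57, Contig60, Contig63, Contig66, Contig67, Contig70, Contig73, Contig79, Contig80, Contig83, Contig88, Contig89, Contig91, Contig93, Contig97, Contig105, Contig108, Contig110, Contig111, Contig113, Contig115, Contig120, Contig121, Contig124, Contig127, Contig130, Contig131, Contig137, Contig144, Contig161, Contig168, Contig171, Contig174 and Contig175. The 48 measured on no array were Contig3, Contig19, Contig22, Contig26, Contig32, Contig41, Contig44, Contig45, Contig47, Contig59, Contig62, Contig74, Contig77, Contig85, Contig92, Contig94, Contig95, Contig96, Contig99, Contig100, Contig101, Contig104, Contig107, Contig117, Contig118, Contig122, Contig135, Contig136, Contig138, Contig140, Contig141, Contig145, Contig146, Contig147, Contig149, Contig152, Contig154, Contig156, Contig157, Contig158, Contig162, Contig164, Contig165, Contig166, Contig169, Contig170, Contig172 and Contig177. A contig in this second list may still be transcribed, since its signal was only not well above background.

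Of the 74 contigs between these extremes, 42 were measured on all 3 arrays of at least 1 group and so entered the tests. These were Contig1, Contig2, Contig6, Contig11, Contig13, Contig15, Contig16, Contig28, Contig30, Contig36, Contig39, Contig40, Contig42, Contig50, Contig52, Contig53, Contig55, Contig58, Contig61, Contig64, Contig65, Contig68, Contig69, Contig71, Contig72, Contig76, Contig78, Contig82, Contig84, Contig87, Contig102, Contig109, Contig112, Contig114, Contig116, Contig128, Contig129, Contig134, Contig142, Contig155, Contig159 and Contig173. They were above background on 5 to 14 arrays, with a median of 12. The other 32 contigs were above background on 1 to 8 arrays, with a median of 2.5, and were not tested, so that 91 of the 171 contigs (53.2%) were tested against 41.1% of the other probes.

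In clean soil 101, 98 and 63 contigs were above background on the 3 arrays. With AgNO3 there were 91, 110 and 94 at 100 mg/kg and 94, 78 and 53 at 200 mg/kg. With Ag-NPs there were 77, 76 and 96 at 100 mg/kg and 87, 90 and 86 at 200 mg/kg. The ranges of the groups overlapped, apart from AgNO3 at 100 mg/kg, whose lowest array lay above the highest of Ag-NPs at 200 mg/kg, and the group means ran from 75 ± 20.7 with AgNO3 at 200 mg/kg to 98.3 ± 10.2 with AgNO3 at 100 mg/kg (mean ± SD, n = 3 each). In clean soil, with AgNO3 at 200 mg/kg and with Ag-NPs at 200 mg/kg, the array on slide 3 had the fewest contigs (63, 53 and 86). AgNO3 at 100 mg/kg had no array on slide 3, so in these means its silver cannot be told apart from slide and scan day. Contigs above background on all 3 arrays of a group numbered 62 in clean soil. For AgNO3 this number was 86 at the lower and 53 at the higher concentration, and for Ag-NPs 69 and 78. In the order just given, these were 36.26, 50.29, 30.99, 40.35 and 45.61% of the contigs. The shares of the other probes were 24.88, 40.05, 22.69, 29.17 and 36.57%. Both sets of probes ranked the groups in the same order, so this order was not particular to the contigs.

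On every one of the 15 arrays a larger share of the contigs than of the other probes was above background. The gap was 10.02 ± 1.56 percentage points (mean ± SD, n = 15 arrays) and ran from 7.31 to 12.2 points. A two-sided exact permutation test of its sign over the arrays gave p = 6.1e-05, the smallest value it can give. The same probes were compared on every array, so the test covers the spread between arrays and not the choice of probes on the array. When all usable spots had to be above background the gap was 9.26 points.

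The number of contigs above background was compared with 2 measures of array quality. With log2 brightness it had r = 0.43 (permutation p = 0.0884) and rho = 0.42 (permutation p = 0.122) over the 15 arrays, and with the SD of the negative control spots it had r = -0.49 (permutation p = 0.111) and rho = -0.52 (permutation p = 0.0470). All 4 values had an adjusted p of 0.122 (Benjamini-Hochberg). Without the 2 arrays farthest from the median, r was 0.08 with brightness and -0.41 with the control spots. Within the 9 arrays of the first scan day r was 0.80 and 0.01, and within the 6 of the second it was 0.10 and -0.24. The part of these measures in the differences between groups was not tested.

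Of the contigs 12 (7.02%) were above background on all 3 arrays of one group and on none of another, beside 42 of the other probes (4.86%). Contig13, Contig53, Contig78, Contig82 and Contig87 were so with AgNO3 at 100 mg/kg against AgNO3 at 200 mg/kg, and Contig28, Contig39, Contig42, Contig65 and Contig78 with AgNO3 at 100 mg/kg against Ag-NPs at 100 mg/kg. These are 2.92% of the contigs in each case, beside 1.62 and 2.89% of the other probes. Contig13, Contig50, Contig52 and Contig53 were so with Ag-NPs against AgNO3 at 200 mg/kg, Contig39 and Contig58 with Ag-NPs at 200 against 100 mg/kg, and Contig65 with AgNO3 at 100 mg/kg against Ag-NPs at 200 mg/kg. The shares were 2.34, 1.17 and 0.585% of the contigs, beside 1.16, 1.04 and 0.694% of the other probes. AgNO3 at 100 mg/kg had no array on slide 3, and each group it is set against here had at least 1 there. In those lists slide and silver therefore cannot be told apart. No contig was so in a comparison of clean soil with a silver group, in either direction. Where one group lies below background, a fold is only a bound, taken against the higher, on each array, of the dim contig's own signal and the lowest signal of any probe well above background. Such a bound holds for the group means under the background correction used here, and it leaves out the spread between replicates.

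Contig13 had levels of -0.81, 0.37 and -1.48 with AgNO3 at 100 mg/kg and -2.18, -2.33 and -1.67 at 200 mg/kg. The groups did not overlap, and the level at 100 mg/kg was at least 1.75-fold higher. Contig53 had -1.14, 0.30 and -1.67 against -2.53, -2.85 and -2.11, at least 1.53-fold higher. The profiles of Contig13 and Contig53 over the 15 arrays were nearly the same (r = 0.99). Contig82 was at least 1.11-fold higher in the same comparison. Contig50 had -0.29, -0.91 and -1.64 with Ag-NPs at 200 mg/kg and -2.26, -3.04 and -2.39 with AgNO3 at 200 mg/kg, at least 1.42-fold higher with Ag-NPs. For Contig52, in the same comparison, the bound was under 1 and no fold is given. Contig65 was at least 1.46-fold higher with AgNO3 at 100 mg/kg than with Ag-NPs at 200 mg/kg, and at least 1.09-fold higher than with Ag-NPs at 100 mg/kg. None of these differences passed the test across all probes.

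At the bright end Contig46, Contig60, Contig63, Contig66 and Contig73 were saturated on all 15 arrays. Their unscaled signal varied only 1.015- to 1.07-fold over the arrays. After scaling their levels ranged over 1.64 to 1.69 log2 units and followed log2 brightness almost exactly (r from -0.998 to -0.9999 over 15 arrays). No difference between groups can be read from these contigs. They remain among the 91 tested, and none was called.

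Over the 44 unsaturated contigs measured on all arrays, the SD of the level over the 15 arrays ran from 0.26 to 1.82 with a median of 0.50. The highest array exceeded the lowest by a median of 3.42-fold, by under 3-fold in 17 contigs and by over 8-fold in 5. The narrowest were Contig24 (SD 0.26), Contig18 (0.29), Contig10 (0.30), Contig57 (0.30) and Contig88 (0.31), and the span of Contig24 from the lowest to the highest array was 1.86-fold. The widest were Contig171 (SD 1.82), Contig89 (1.72), Contig161 (1.67), Contig93 (1.43) and Contig127 (1.03).

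Differences between groups were tested with limma on all 446 tested probes together, and the words rose, fell and changed are used of a contig whose Benjamini-Hochberg adjusted p over these probes was below 0.05. Over the 5 groups at once, 1 of the 91 contigs changed (Contig11, adjusted p = 0.0206, limma's F test), where 4.04% of all tested probes did. With slide as a block, or without AgNO3 replicate 2 at 200 mg/kg, no contig passed this test. Under normexp background correction Contig11 did not pass it (adjusted p = 0.133, limma) and Contig131 did (0.0168).

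AgNO3 at 200 mg/kg against clean soil gave the most contig calls. With levels scaled to the 75th percentile, Contig131, Contig7, Contig70 and Contig79 rose and Contig11 fell, 5 of 91 contigs (5.49%), beside 10.8% of all tested probes (7.85% that rose and 2.91% that fell). The 3 arrays of one group lay beyond the 3 of the other for 16 contigs, 8 in each direction (17.6%), beside 32.5% of all tested probes (19.1% higher and 13.5% lower with AgNO3). An unadjusted p was below 0.05 for 15 contigs (16.5%), beside 28.5%. The median log2 difference was -0.12 over the contigs and -0.21 over all tested probes. The contig shares thus lay below those of the array as a whole, a difference that was not tested. The fall of Contig11 passed under every scaling tried. The 4 rises did not: none passed with quantile normalization or in the authors' deposited table, and in the latter their log2 differences were between 0.0016 and 0.09. The median over all tested probes moved as well, to -0.03 with quantile normalization and -0.38 in the authors' deposited table. Quantile normalization gives every array the same set of values, and how the authors' deposited table was normalized is not given. Which scaling is right was not tested, nor was the part of ranks in the loss of the 4 calls.

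Contig11 had levels of 1.91, 1.22 and 1.34 in clean soil and -1.89, -3.98 and -1.27 with AgNO3 at 200 mg/kg. All 3 treated arrays lay below 0 and all 3 control arrays above 1.2, and only 1 of the treated arrays was above background. It fell by 3.87 ± 0.68 on the log2 scale (SE, limma adjusted p = 0.0107), a measured ratio of the means of 14.6. With the other treated arrays set no lower than the lowest signal above background, the fall in these levels was at least 7.28-fold. Against the control array of the same slide the log2 difference was -3.80 on slide 1, -5.20 on slide 2 and -2.61 on slide 3. Only the treated array of slide 1 was above background, so the values on slides 2 and 3 are not measured sizes. The adjusted p was 0.0132 with slide as a block and 0.0200 with log2 brightness as a covariate. The call held in 26 of 27 alternatives, and the exception was the comparison within slide 3, which holds 1 array of each of these groups (adjusted p from 1.7e-04 to 0.996 over the alternatives). Its size depended on the background correction: under normexp the log2 difference was -1.02, a 2.03-fold fall (adjusted p = 0.0289, limma). Normexp was run with an offset of 50, beside 75th percentiles of 16.9 to 54.3 for the processed signal. Such an offset narrows the log2 differences of dim probes. Its part in the smaller fall was not tested.

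In the other groups no difference of Contig11 from clean soil passed. With AgNO3 at 100 mg/kg the levels were 0.08, -0.63 and -1.02, below every clean-soil array and above every array at 200 mg/kg. The log2 difference from clean soil was -2.01 ± 0.68 and did not pass (adjusted p = 0.150), nor did the difference of -1.86 ± 0.68 between 200 and 100 mg/kg of AgNO3 (adjusted p = 0.170, limma). With Ag-NPs the levels were -0.28, 2.17 and -0.26 at 100 mg/kg and 0.77, 0.96 and 0.98 at 200 mg/kg. The lower nanoparticle group overlapped clean soil and held the highest of the 15 arrays, while the higher lay just below all 3 of its arrays with a log2 difference of -0.59 (95% interval -2.04 to 0.87, adjusted p = 0.843, limma).

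Contig131 had levels of 6.42, 6.77 and 6.56 in clean soil and 8.54, 8.25 and 8.78 with AgNO3 at 200 mg/kg. The groups lay far apart compared with their spread, and the contig rose 3.84-fold, by 1.94 ± 0.46 on the log2 scale (SE, limma adjusted p = 0.0208). The rise was 2.12, 1.48 and 2.22 within slides 1, 2 and 3, and the call held with slide as a block (adjusted p = 0.0414) and with brightness in the fit (0.0207). The call ended, among other settings, without control replicate 1, without control replicate 2 or without AgNO3 replicate 3, and it held in 19 of 28 alternatives (adjusted p from 0.00297 to 0.996). The rise depended on the scaling: it was 0.95 on the log2 scale with quantile normalization (adjusted p = 0.255) and 0.09 in the authors' deposited table (adjusted p = 0.939, limma).

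Contig131 was also above clean soil in 8 of the 9 arrays of the other silver groups. With AgNO3 at 100 mg/kg its levels were 8.14, 7.28 and 8.72, and with Ag-NPs at 200 mg/kg they were 8.05, 7.84 and 7.94. Both groups lay above every clean-soil array, but the log2 differences of 1.46 ± 0.46 (adjusted p = 0.124) and 1.36 ± 0.46 (adjusted p = 0.382) did not pass in limma. The first passed with brightness as a covariate (adjusted p = 0.0293), under normexp background correction and without the first array of Ag-NPs at 100 mg/kg. With Ag-NPs at 100 mg/kg the levels were 5.85, 7.53 and 7.73, and the first of these arrays lay below clean soil.

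Contig7 had levels of 7.91, 8.16 and 8.73 in clean soil and 10.29, 9.18 and 10.16 with AgNO3 at 200 mg/kg, a rise of 3.05-fold (log2 1.61 ± 0.44, SE, limma adjusted p = 0.0318). Contig70 went from 7.45, 8.06 and 8.50 to 9.90, 8.997 and 9.57, a rise of 2.81-fold (log2 1.49 ± 0.44, adjusted p = 0.0439, limma). Contig79 went from 6.83, 6.73 and 7.23 to 8.72, 7.74 and 8.45, a rise of 2.59-fold (log2 1.37 ± 0.42, adjusted p = 0.0471, limma). In all 3 contigs every treated array lay above every control array, and the second AgNO3 array was the lowest of the treated ones.

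Contig7, Contig70 and Contig79 had almost the same profile over the 15 arrays (r = 0.96 to 0.98 between pairs, a description over arrays that share scaling), so they are not 3 separate observations. Whether their probes share sequence cannot be read from the files used here. Their calls were lost with slide as a block (adjusted p = 0.0545, 0.0764 and 0.0799) and with brightness as a covariate (0.0599, 0.0794 and 0.0819). Within slides 1, 2 and 3 the log2 differences were 2.38, 1.02 and 1.43 for Contig7, 2.45, 0.94 and 1.08 for Contig70, and 1.89, 1.01 and 1.21 for Contig79, above 0 throughout. With quantile normalization the log2 differences were 0.25, 0.40 and 0.48 (limma adjusted p = 0.533, 0.269 and 0.342). In the authors' deposited table they were 0.0016, 0.0043 and 0.0035 (limma adjusted p = 0.999, 0.997 and 0.998). The calls held in 16, 9 and 7 of 28 alternatives, and all 3 ended without control replicate 1 or 2 and without AgNO3 replicate 1 or 3. The calls of Contig70 and Contig79 also ended when some single arrays of groups outside the comparison were left out.

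In the other groups the log2 differences of these contigs from clean soil did not pass. With AgNO3 at 100 mg/kg the log2 differences were 0.32 for Contig7, 0.29 for Contig70 and 0.34 for Contig79. With Ag-NPs at 200 mg/kg they were 0.77, 0.77 and 0.80, and with Ag-NPs at 100 mg/kg 0.28, 0.12 and 0.20. The differences between 200 and 100 mg/kg of AgNO3, 1.29, 1.19 and 1.03, did not pass either (limma adjusted p = 0.170, 0.170 and 0.197). The comparisons with clean soil share its arrays. The contig most like Contig131 over the arrays was Contig83 (r = 0.93), followed by Contig7 (r = 0.74), and those most like Contig11 were Contig175 (r = 0.70) and Contig130 (r = 0.69), each over 15 arrays and among contigs measured on all of them.

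Ag-NPs against AgNO3 at 200 mg/kg gave 1 contig call of 91 (1.099%), beside 1.12% of all tested probes. Contig11 was higher with Ag-NPs by 3.29 ± 0.68 on the log2 scale (SE, limma adjusted p = 0.0335), a measured ratio of 9.76. Since 1 of 3 AgNO3 arrays was above background, the bound taken as before is at least 4.85-fold. The 3 Ag-NP arrays (0.77 to 0.98) lay above the 3 AgNO3 arrays (-3.98 to -1.27). With slide as a block the call was lost (adjusted p = 0.0999), as it was under normexp (log2 0.64, adjusted p = 0.240, limma), while with brightness as a covariate it held (0.0203). Within slide 1 the mean difference was 2.76 and within slide 3, where the AgNO3 array was not above background, it was 2.26. The call held in 18 of 26 alternatives (adjusted p from 0.00288 to 0.729), and among single arrays left out it ended without AgNO3 replicate 2, which has the lowest level of Contig11, without Ag-NPs replicate 2 or 3, and without control replicate 2.

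In this comparison 17 contigs (18.7%) had groups that did not overlap, 13 of them higher with Ag-NPs, beside 35.2% of all tested probes and 21.1% higher. An unadjusted p was below 0.05 for 20 contigs (22.0%), beside 31.2%. Contig34 was lower with Ag-NPs (0.74, 0.66 and 0.46) than with AgNO3 (1.67, 1.36 and 1.72), a log2 difference of -0.96 ± 0.39 that did not pass (adjusted p = 0.121, limma). Contig34 also stood apart from AgNO3 at 100 mg/kg (0.42, -0.12 and 1.31), by 1.04 ± 0.39 (adjusted p = 0.170). Contig131 and Contig6 were lower with Ag-NPs without overlap, by log2 -0.58 and -0.55 (adjusted p = 0.380 and 0.463), and the difference of Contig131 changed sign to 0.06 under quantile normalization and to 0.05 in the authors' deposited table. The median log2 difference was -0.02 over the contigs and 0.21 over all tested probes.

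AgNO3 at 100 mg/kg against clean soil gave no contig call, beside 2.91% of all tested probes. Groups did not overlap for 8 contigs (8.79%), beside 15.9%, and 4 contigs (4.40%) had an unadjusted p below 0.05, beside 11.9%. Contig142 came closest, with -0.54, -1.26 and -1.54 in clean soil and 0.11, 0.41 and -0.01 with AgNO3. The treated arrays all lay above the control arrays, a log2 difference of 1.29 ± 0.38 (adjusted p = 0.0865, limma) that passed with brightness as a covariate (adjusted p = 0.0270), under quantile normalization and without the first array of Ag-NPs at 100 mg/kg. Contig65, above background on 1 of 3 clean-soil arrays, had a log2 difference of 1.503 (adjusted p = 0.208) and Contig68 one of -0.39 (adjusted p = 0.958).

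Ag-NPs at 100 mg/kg against clean soil gave no contig call in limma, beside 0.0% of all tested probes, and the smallest adjusted p of a contig was 0.996. Groups did not overlap for 4 contigs (4.40%), beside 4.71%, and as many had an unadjusted p below 0.05, beside 2.24%. Contig80 (log2 0.37) lay above clean soil on every array, and Contig159 (-0.69), Contig38 (-0.52) and Contig110 (-0.29) below it, and none passed. The smallest p belonged to Contig50 (log2 1.32), whose groups overlapped.

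Ag-NPs at 200 mg/kg against clean soil gave no contig call either, beside 0.0% of all tested probes, and the smallest adjusted p of a contig was 0.382 (limma). An unadjusted p was below 0.05 for 10 contigs (10.99%), beside 9.87%. Groups did not overlap for 7 contigs (7.69%), beside 14.6%. Besides Contig131 these included Contig83 (log2 1.23) and Contig61 (0.62), higher with Ag-NPs, and Contig110 (-0.63) and Contig38 (-0.40), lower.

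This count depended on 1 array, the first replicate of Ag-NPs at 200 mg/kg. Contig55 had levels of -0.49, -3.77 and -3.95 on the 3 arrays of that group, against -0.15, -0.91 and -0.83 in clean soil. Contig84 had -0.17, -4.11 and -3.13, against -0.60, -0.93 and -1.48. Contig134 had 0.01, -2.20 and -2.48, against -0.18, -0.56 and -0.28. Contig113 had 1.34, -0.59 and -0.58, against 1.31, 1.02 and 1.26. In each of these 4 contigs replicates 2 and 3 lay below every clean-soil array, while replicate 1 lay above all of them or, for Contig55, among them. With all arrays their adjusted p ran from 0.382 to 0.472, and without replicate 1 all 4 passed, with log2 differences of -3.23 for Contig55, -2.61 for Contig84, -2.002 for Contig134 and -1.78 for Contig113 (limma adjusted p from 0.00437 to 0.0208). Contig55 and Contig84 were not above background on replicates 2 and 3, and the bound taken as before was 3.02- and 2.33-fold lower than in clean soil. In clean soil each was above background on only 2 of 3 arrays, so these 2 folds are not strict minimums. Contig134 was above background on 1 of those 2 arrays (at least 3.59-fold lower) and Contig113 on both. These 4 were singled out after their values were seen, and replicates 1 and 2 lay on the same slide. The share of all tested probes that passed without replicate 1 is not given here, so the 4 cannot be called particular to the contigs.

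Ag-NPs against AgNO3 at 100 mg/kg gave no contig call, beside 1.12% of all tested probes, and 3 contigs (3.30%) had an unadjusted p below 0.05, beside 10.1% (limma). Groups did not overlap for 7 contigs (7.69%), beside 12.6%. Contig124 (log2 1.29) and Contig174 (0.53) were higher with Ag-NPs, and Contig121 (-0.74) and Contig168 (-0.55) lower. Contig65, above background on none of these Ag-NP arrays, was lower too, with the bound given above. The adjusted p of these 5 ran from 0.373 to 0.961. These groups share no slide, so no difference within a slide can be given, and with slide as a block, estimated through the other groups, the adjusted p of these 5 contigs ran from 0.943 to 0.984.

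AgNO3 at 200 against 100 mg/kg gave no contig call, beside 0.0% of all tested probes, and the smallest adjusted p of a contig was 0.170 (limma). An unadjusted p was below 0.05 for 16 contigs (17.6%), beside 19.7%. Groups did not overlap for 16 contigs as well, 15 of them lower at 200 mg/kg, beside 19.1% and 16.8% lower. Contig40 (log2 -3.78 ± 1.39), Contig15 (-3.75 ± 1.37) and Contig89 (-3.29 ± 1.04) had the largest differences, all at an adjusted p of 0.170. At 200 mg/kg only 1 of 3 arrays measured Contig40 and Contig15 above background. The bounds on the group means were 9.95- and 8.34-fold lower there. They leave out the spread between replicates, and neither difference passed. Without replicate 3 of AgNO3 at 100 mg/kg 5 contigs passed, Contig7, Contig34, Contig70, Contig79 and Contig89, and the share of all tested probes in that fit is not given. Ag-NPs at 200 against 100 mg/kg also gave no contig call, beside 0.0%, with 6 contigs (6.59%) at an unadjusted p below 0.05, beside 6.95%, and 4 (4.40%) without overlap, beside 8.74%. Those were Contig83 (log2 0.94), Contig131 (0.91) and Contig79 (0.61), higher at 200 mg/kg, and Contig174 (-0.43), lower, and the smallest p belonged to Contig134 (-1.53, adjusted p = 0.590).

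The median standard error of a contig's log2 difference was 0.45. In the 8 comparisons the 95% interval lay within a 4-fold change in either direction for 68 to 80 of the 91 contigs. For the rest the interval reached beyond 4-fold, which describes the size of a difference and not whether it could be detected. The rest include Contig11, called for AgNO3 at 200 mg/kg against clean soil with a log2 difference of -3.87. The 91 contigs include the 5 saturated ones, from which no difference between groups can be read. Whether a 4-fold change could be detected with 3 arrays per group was not tested.

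A few contigs varied widely between the replicates of a group. Contig40 had 3.94, 0.63 and -0.13 in clean soil, 2.28, 4.48 and -0.09 with AgNO3 at 100 mg/kg, and -3.08, -0.85 and -0.75 at 200 mg/kg. With Ag-NPs it had 5.24, 2.98 and -0.53 at 100 mg/kg and 0.96, 1.77 and 2.21 at 200 mg/kg. Only the AgNO3 group at 200 mg/kg had all 3 arrays below those of clean soil, and 1 of these 3 was above background. The 13 arrays on which Contig40 was above background spanned 68.1-fold. The SD between replicates was 2.02 and that between spots of an array 0.06, so the spread lay between samples or arrays and not within them.

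Contig15 followed Contig40 almost exactly (r = 0.998 over 15 arrays) and spanned 85.2-fold over the 12 arrays on which it was above background. Contig89 had 7.89, 7.36 and 6.06 in clean soil, 8.22, 9.57 and 6.43 with AgNO3 at 100 mg/kg, 3.01, 5.09 and 6.26 at 200 mg/kg, 9.34, 6.93 and 5.09 with Ag-NPs at 100 mg/kg and 6.60, 7.86 and 7.98 at 200 mg/kg, a span of 94.3-fold. Contig161 spanned 98.0-fold, from 0.14 to 6.76, with 6.21, 4.15 and 2.37 in clean soil and 0.14, 3.12 and 3.95 with AgNO3 at 200 mg/kg. Contig171 spanned 91.5-fold, from -1.15 to 5.37, and Contig93 21.5-fold, from -0.74 to 3.68. In these contigs and in Contig40 and Contig15 the first array of AgNO3 at 200 mg/kg was the lowest of the 15.

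Against clean soil Contig40 had a log2 difference of -3.04 ± 1.39 with AgNO3 at 200 mg/kg that did not pass (adjusted p = 0.167, limma). It was -7.02 within slide 1, -1.48 within slide 2 and -0.62 within slide 3, so it was largest on slide 1. Only the AgNO3 array of slide 2 was above background, so the values within slides 1 and 3 are not measured sizes. Over all arrays the bound on the group means was 5.96-fold lower, which leaves out the spread between replicates. Ag-NPs lay above AgNO3 at 200 mg/kg by 3.21 ± 1.39 for Contig40 and 3.18 ± 1.37 for Contig15 (adjusted p = 0.137 for both), measured against a group with 1 of 3 arrays above background. The bounds on these group means were 6.68- and 5.62-fold, again without the spread between replicates. With brightness in the fit the adjusted p of Contig15 was 0.0502.

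The levels of 8 contigs, the 5 called ones and Contig15, Contig40 and Contig89, were set against log2 brightness over the 15 arrays, which gave 16 tests. A level has log2 brightness subtracted, which by itself pushes r below 0, as in the saturated contigs. The permutations do not allow for this. Contig15 had r = 0.68 (permutation p = 0.00542, adjusted 0.0431) and rho = 0.44 (adjusted p = 0.177, permutation). Contig40 had r = 0.67 (permutation p = 0.0064, adjusted 0.0431) and rho = 0.44 (adjusted 0.177). Contig89 had r = 0.65 (permutation p = 0.00808, adjusted 0.0431) and rho = 0.59 (adjusted 0.0773). Pearson's r thus passed and Spearman's rho did not. Contig15 and Contig40 had almost the same profile, so their results are not separate observations.

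When the 2 arrays of most extreme brightness were left out, r was 0.52 for Contig15, 0.49 for Contig40 and 0.54 for Contig89. Within the 9 arrays of the first scan day it was 0.65, 0.64 and 0.54, and within the 6 of the second 0.79, 0.78 and 0.94. Of the called contigs, Contig131 had r = -0.58 (permutation p = 0.0219, adjusted 0.0773), Contig7 had -0.50 (adjusted 0.146), Contig70 -0.47 (adjusted 0.177) and Contig79 -0.39 (adjusted 0.228), and Contig11 had 0.09 (adjusted 0.813). The part of brightness in these levels beyond the covariate fits was not tested.

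Among the 86 tested contigs that were not saturated, 11 of 3655 pairs had profiles with r of at least 0.95 over the 15 arrays, beside a median r of 0.13 over all pairs. These pairs involve 16 contigs. They join Contig15 with Contig40, Contig13 with Contig53, Contig121 with Contig168 (r = 0.98), Contig55 with Contig134 (0.97) and Contig5 with Contig111 (0.95), and they form the triplets Contig1, Contig12 and Contig33 (0.98 to 0.99) and Contig7, Contig70 and Contig79. Counts of contigs above therefore hold some profiles more than once.

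Contig119 and Contig143 were left out by the filter on dim probes and passed when all 1035 probes were tested, and they are described here after their values were seen. Contig119 had -4.85, -4.81 and -2.94 in clean soil and 0.50, -1.28 and -1.34 with AgNO3 at 200 mg/kg, where it was above background on 2 of 3 arrays and in clean soil on none. With AgNO3 it was at least 2.80-fold higher than in clean soil (adjusted p = 0.0129, limma without the filter) and at least 2.60-fold higher than with Ag-NPs at 200 mg/kg (adjusted p = 0.0117). Contig143 was above background on 2 of 3 arrays there too, at least 1.82-fold higher than in clean soil (adjusted p = 0.0329) and at least 1.69-fold higher than with Ag-NPs at 200 mg/kg (adjusted p = 0.0307, limma). For both contigs all 3 AgNO3 arrays at 200 mg/kg lay above all arrays of the compared groups. The AgNO3 means include an array not above background, so the folds given for these contigs are not strict minimums.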

How the data were processed

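Per the file headers, the deposited scanner files hold 1-colour spot intensity values made with Agilent Feature Extraction 10.5.1.1, background-subtracted within each array and not scaled between arrays. The authors' deposited table holds 1 log2 value per spot and array. How it was normalized is not given in these sources, and its columns correlated with the log2 scanner values at r = 0.969 to 0.993.

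Each array held 15744 spots, of which 536 control spots and those marked as outliers were left out, leaving 8 to 14 spots per contig. Log2 processed intensity was averaged per probe, and each array's 75th percentile was subtracted. Probes well above background (at least 0.5 of their spots) on all 3 arrays of at least 1 group were tested, 446 of 1035. One limma 3.58.1 fit (R 4.3.3) of all 15 arrays had the group as its only term, with p-values adjusted by Benjamini-Hochberg within each comparison. The script was tested on simulated data. Permutation tests used scipy 1.17.1 (Python 3.11.15), with 100000 draws for correlations. With 3 arrays per group, the number of arrays limits the precision.

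The alternatives were normexp background correction (offset 50), quantile normalization, another percentile, the authors' table, filters, slide, brightness or replicate number in the model, fewer groups, and leaving out each array. Normexp ran on the median signal, since the files have no mean signal column. Comparisons within slides were added after the data were seen.

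Contigs were named by rule: those that passed in any comparison, up to 3 with the largest difference each way per comparison among contigs without overlap, those with the smallest p, those on all arrays of one group and none of another (values for up to 6), saturated ones, the 5 widest and 5 narrowest, and those most like a called contig. The complete lists by detection, the pairs with r of at least 0.95, and the contigs said to be singled out go beyond it. Words for gene descriptions could not be searched, as no table names the probes. The members and lists were chosen with earlier results of these data known.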

Additional observations from a re-analysis of the deposited data

Results flagged for a closer look

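Contig11 differed between the forms of silver at 200 mg/kg when each was set against the same clean soil: the log2 differences of -3.87 with AgNO3 and -0.59 with Ag-NPs were apart by 3.29 ± 0.68 (SE, limma adjusted p = 0.0335). With AgNO3 only 1 of 3 arrays was above background, so for these levels the difference between the forms is given as a bound of 4.85-fold. Under normexp the difference was smaller, 1.56-fold (log2 0.64), and the call was lost. The call was also lost with slide as a block. No group had the 4 samples needed to look for single arrays far from the others.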

How the results depend on the processing

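Of 1130 alternative values of 43 named differences, 1036 kept their direction and side of the threshold, 70 lost and 22 gained a call, and 2 changed sign: Contig131 between Ag-NPs and AgNO3 at 200 mg/kg, at 0.0635 with quantile normalization and 0.0501 in the authors' deposited table. Most of the 43 were not called, so most of the 1036 values were again not called. All 70 losses fell on the called differences. For AgNO3 at 200 mg/kg against clean soil, the call of Contig11 held in 26 of 27 alternatives. Those of Contig131, Contig7, Contig70 and Contig79 held in 19, 16, 9 and 7 of 28. The call of Contig11 for Ag-NPs against AgNO3 at 200 mg/kg held in 18 of 26. The 5 calls for AgNO3 at 200 mg/kg against clean soil became 2 under normexp, 3 with quantile normalization, 3 with the percentile over probes measured on all arrays, 2 in the authors' deposited table, 3 without the filter on dim probes, 2 with slide as a block, 2 with brightness as a covariate, 3 with only the groups compared, 11, 1 and 0 within slides 1, 2 and 3, and 1 to 6 when each array was left out. It was 1, Contig11, without control replicate 1, control replicate 2 or AgNO3 replicate 3. The single call for Ag-NPs against AgNO3 at 200 mg/kg became 0 under normexp, 2 with quantile normalization, 2 in the authors' table, 3 without the filter, 0 with only probes above background on all arrays, 0 with slide as a block, 9 with brightness, 4 with only the groups compared, 10 and 0 within slides 1 and 3, and 0 to 8 when each array was left out (8 without Ag-NPs replicate 1). The single call over the 5 groups was Contig131 in place of Contig11 under normexp, and the count became 2 in the authors' table, 2 without the filter, 0 with only probes above background on all arrays (which leaves out Contig11), 0 with slide as a block, 2 with brightness, and 0 to 4 when each array was left out. From 0 calls, AgNO3 at 100 mg/kg against clean soil reached 1 under normexp, 1 with quantile normalization, 2 with brightness and 0 to 2 when each array was left out. AgNO3 at 200 against 100 mg/kg reached 1 in the authors' table, 3 with only the groups compared, 6 within slide 1 and 0 to 5 when each array was left out. Ag-NPs at 200 mg/kg reached 4 against clean soil within slide 1 and 0 to 4 when each array was left out, and 0 to 3 against 100 mg/kg (3 without Ag-NPs replicate 1 at 200 mg/kg). Ag-NPs at 100 mg/kg gave 0 calls against clean soil and against AgNO3 in every alternative run. The shares of all tested probes called in these alternatives are not given here. Apart from what the filters' construction shows, the cause of the changes in the counts was not tested.

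Requiring all spots above background lowered the mean count of contigs to 85.7 with AgNO3 at 100 mg/kg, and to 71.0 and 76.3 with Ag-NPs at 100 and 200 mg/kg. With each array left out, the mean ran from 80.5 to 99.5 in clean soil, from 92.5 to 102.0 and from 65.5 to 86.0 with AgNO3 at 100 and 200 mg/kg, and from 76.5 to 86.5 and from 86.5 to 88.5 with Ag-NPs at 100 and 200 mg/kg.

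Replicate numbers were not taken to pair the samples: of 30 pairs of arrays with the same number, 10 had deviations from the group means that correlated above 0.1 (r from -0.50 to 0.74), and 7 of 15 arrays correlated best with their own number. With the replicate block the calls were 5 for AgNO3 at 200 mg/kg against clean soil, 0 for Ag-NPs against AgNO3 at 200 mg/kg (Contig11, adjusted p = 0.0608, limma), 1 over the 5 groups and 0 elsewhere.

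Each group had 3 arrays. A comparison within a slide rests on 1 or 2 arrays per group, and a lone array is assumed to vary like the replicated groups of that slide. Signal over background limits the 80 contigs that were not tested, and saturation the 5 brightest.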
